A study of Sus scrofa with 6 samples.

Results

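The FOXO factors are transcription factors that link insulin and growth factor signalling to protein breakdown in muscle. While the kinase AKT is active it phosphorylates them and keeps them out of the nucleus. When signalling falls, as in fasting or disuse, they enter the nucleus and switch on ubiquitin ligases that mark muscle proteins for the proteasome. The level of a FOXO mRNA is therefore not a measure of FOXO activity, which is set largely on the protein. The 10 genes described here are the factors FOXO1, FOXO3 and FOXO4, the ligase genes FBXO32 (atrogin-1), TRIM63 (MuRF1), FBXO30 (MUSA1) and FBXO21 (SMART), the sestrins SESN1 and SESN3, which restrain growth signalling, and the cell cycle inhibitor CDKN1A (p21).

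The genes were taken by symbol from a table of 25322 Ensembl pig genes, and 9 of the 10 had a row. SESN3 was not matched and is not analysed here. CDKN1A was listed at 0 in all 6 libraries. Abundant genes were listed at 0 in some libraries too, so such a 0 may be a failed estimate and no level is given for this gene. The other 8 passed the filter for testing, which asked 3 or more libraries to reach an FPKM of 1, as did 10005 genes in all. FPKM counts fragments per length of gene and relative to the mapped fragments of the library. The members were chosen by their known roles with the FPKM difference between altitudes in these same libraries in view, so that difference is given below as a description of the 8 genes and not as a test of them.

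RNA came from longissimus dorsi, the long back muscle, of 6 healthy female Tibetan pigs, 3 per group, with 1 library per animal. The high altitude animals roamed freely in the Tibetan highland, at about 4000 m. The low altitude animals lived on the Chengdu plain, at about 500 m, under experimental conditions and fed daily, and descended from Tibetan pigs bred in the lowland over several generations. Altitude, feeding, housing and line therefore differed together and cannot be told apart. Age, the time of sampling and the time since the last meal are not given in the labels.

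The FPKM totals of the libraries were 506611 to 571855, and relative depth, read from the spacing of low values, ranged from 0.873 to 1.19. Fast fibre genes of the muscle were abundant in each library, with MYL11, a fast myosin light chain, at an FPKM of 14390 to 17808. Markers of other cell types were low beside them. Of 6 erythroid markers 3 were matched and 0 tested, and they summed to at most 2.89, of which ALAS2 made up 2.86. The blood content of the samples is therefore not measured here. No matched marker of a cell type was listed at 0 in all libraries, but the actin gene of skeletal muscle, ACTA1, had 0 in 4 of them, and 6 of 16 skeletal muscle markers were matched. High altitude library 1 stood apart: its median-of-ratios size factor, a measure of the typical gene's level, was 0.874, against 0.997 to 1.09 in the other 5. The 4 matched slow fibre genes summed to an FPKM of 10493, 2751 and 6874 in high altitude libraries 1 to 3 and to 3126, 4707 and 3106 in the low altitude ones.

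The 2 classical atrophy ligases showed the widest gap between the groups among the 8 genes. FBXO32 was at an FPKM of 9.90, 8.44 and 14.8 in high altitude libraries 1, 2 and 3 and at 58.3, 25.7 and 74.1 in low altitude libraries 1, 2 and 3. The groups did not overlap, and the lowest low altitude library was 1.73 times the highest high altitude one. Its mean was 4.77-fold higher at low altitude, and the log2 fold change fitted to log2(FPKM + 1), low altitude minus high, was 2.06 (SE 0.39, 95% interval 1.14 to 2.99). TRIM63, which attacks the thick filament of the sarcomere, was at 31.6, 61.2 and 84.9 at 4000 m and at 193, 133 and 406 at 500 m. Here too the groups were apart, but library 3 of the low altitude group was 3.06 times library 2 of the same group. The mean of TRIM63 was 4.12-fold higher at low altitude (log2 fold change 1.97, SE 0.48, interval 0.84 to 3.11). Of the tested genes 0.2% had a higher fitted log2 fold change than FBXO32, and 0.24% a higher one than TRIM63.

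The 2 further ligases of the FOXO programme gave different values, though the difference between them was not tested. FBXO30, a ligase induced on denervation, was at an FPKM of 3.03, 3.90 and 4.95 at 4000 m and at 7.41, 5.85 and 7.84 at 500 m. The groups did not overlap, and the mean went from 3.96 ± 0.962 (SD, n = 3) to 7.03 ± 1.05, 1.78-fold higher (log2 fold change 0.71, SE 0.19, interval 0.27 to 1.14). FBXO21 was at 4.22, 4.97 and 4.24 at 4000 m and at 4.17, 4.63 and 3.93 at 500 m. Its groups overlapped, with means of 4.48 ± 0.426 and 4.24 ± 0.354. The fitted log2 difference of FBXO21 was −0.06, with an interval of −0.37 to 0.24, so a change of the size seen for FBXO32 or TRIM63 lay outside it. Its sign was not stable, with 0.0011 once each library was scaled to 1 total and 0.0015 without high altitude library 2.

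**Figure D1:**
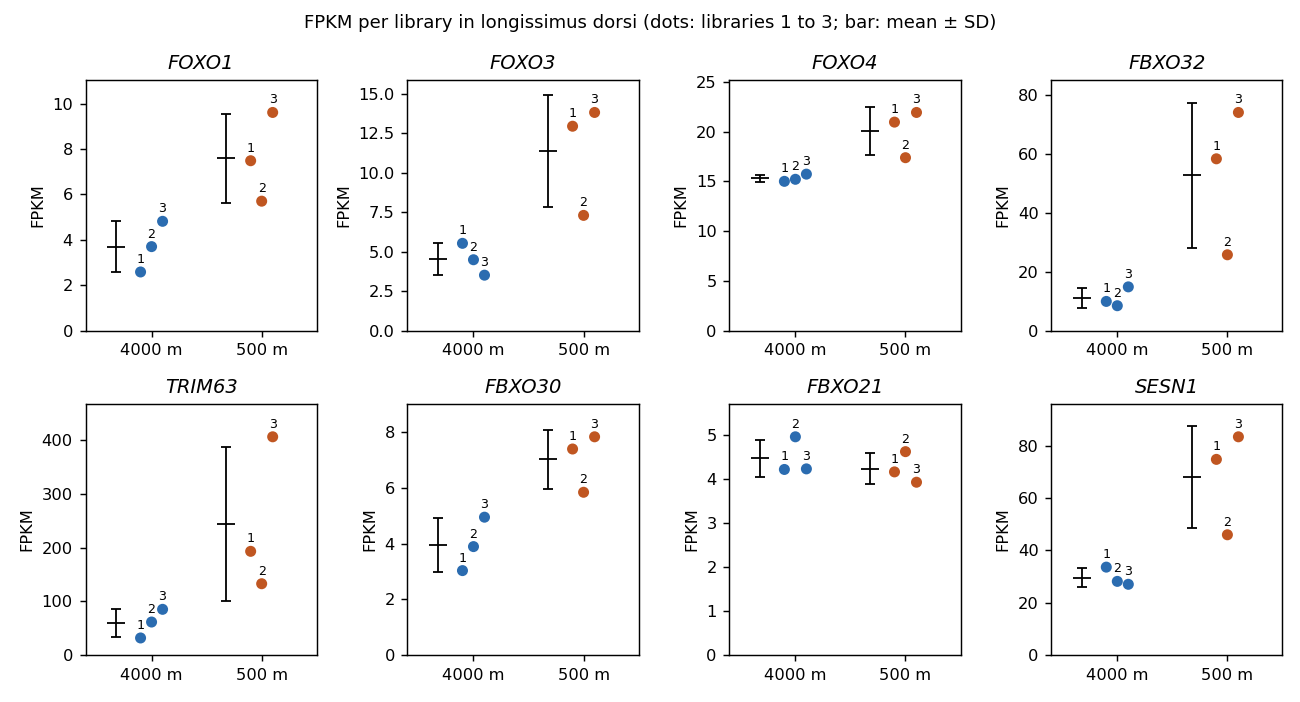
FPKM (vertical axes, starting at 0) of the 8 tested genes in each library at 4000 m (blue) and 500 m (orange), with the library number above each dot and the group mean ± SD (n = 3) as a black bar. In 7 of the 8 genes, in the values as deposited, the low altitude libraries lie above the high altitude ones, and low altitude library 2 is the lowest of its group in the same 7. Among all tested genes these shares were 11.3% and 23.2%, the latter 34.3% with median-of-ratios scaling. The genes were chosen with the difference between altitudes in view.

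Of the FOXO factors, FOXO3 had the largest ratio between groups and FOXO4 the smallest. FOXO3, the member best known for driving both atrophy ligases and autophagy, was at an FPKM of 5.53, 4.49 and 3.51 at 4000 m and at 13.0, 7.30 and 13.8 at 500 m. The lowest low altitude library was 1.32 times the highest high altitude one, and the mean was 2.52-fold higher (log2 fold change 1.14, SE 0.26, interval 0.53 to 1.74). FOXO1, which also governs the switch of fuel use in fasting, was at 2.58, 3.70 and 4.82 at 4000 m and at 7.49, 5.70 and 9.61 at 500 m. Its mean went from 3.70 ± 1.12 (SD, n = 3) to 7.60 ± 1.96, 2.05-fold higher (log2 fold change 0.87, SE 0.24, interval 0.32 to 1.43). FOXO4 was at 15.0, 15.2 and 15.7 at 4000 m and at 20.96, 17.4 and 21.9 at 500 m. The high altitude libraries were close together, 15.3 ± 0.374, and the low altitude mean of 20.1 ± 2.40 was 1.31-fold higher (log2 fold change 0.36, SE 0.14, interval 0.03 to 0.70). The separation of FOXO4 depended on scaling, since its groups overlapped with median-of-ratios scaling and with quantile normalization.

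FPKM is per length, so the levels of the 3 factors were set side by side. The gene models behind the lengths are not given, so a difference in level between genes is less certain than one between libraries. FOXO4 had the highest level of the 3 in each library. It made up 64.9, 65.0 and 65.4% of their summed FPKM at 4000 m and 50.6, 57.2 and 48.3% at 500 m, where the groups did not overlap. The sum was 23.1, 23.4 and 24.1 at 4000 m and 41.4, 30.4 and 45.4 at 500 m. FOXO3 held 14.6 to 23.9% of the sum at 4000 m and 24.0 to 31.3% at 500 m, and FOXO1 11.2 to 20.0% and 18.1 to 21.2%.

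SESN1, a stress-induced sestrin that restrains mTORC1, the growth-promoting kinase complex, was at an FPKM of 33.6, 28.1 and 27.0 at 4000 m and at 74.8, 46.0 and 83.5 at 500 m. The groups did not overlap, and the lowest low altitude library was 1.37 times the highest high altitude one. The mean was 2.30-fold higher (log2 fold change 1.14, SE 0.24, interval 0.57 to 1.70).

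**Figure D2:**
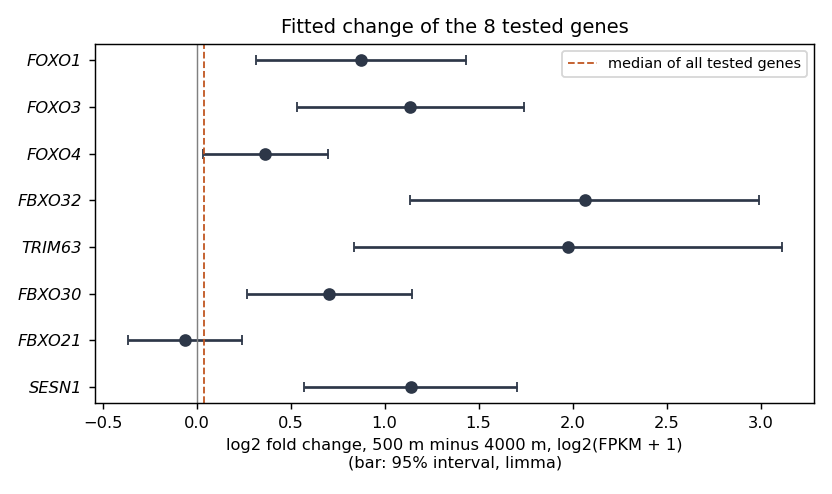
Fitted log2 fold change, 500 m minus 4000 m on the log2(FPKM + 1) scale (horizontal axis), of the 8 tested genes, with 95% intervals from limma and the median of all tested genes as a dashed line. FBXO32 and TRIM63 lie near 2, the interval of FBXO21 spans 0, and that of FOXO4 ends just above it.

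In limma, with Benjamini-Hochberg adjustment over all 10005 genes, 0 of the 8 genes passed a threshold of 0.05, with adjusted p of 0.155 for FBXO32, 0.204 for SESN1, 0.243 for FOXO3 and 0.282 to 0.921 for the other 5. Of all tested genes 0.23% passed, 16 higher and 7 lower at low altitude (26 and 6 once each library was scaled to 1 total). Without low altitude library 2, FBXO32 passed (log2 fold change 2.50, SE 0.27, Benjamini-Hochberg adjusted p = 0.0482 in limma), while its adjusted p over all alternatives tried ran from 0.0482 to 0.446. At an unadjusted p under 0.05, limma called 7 of the 8, all higher at low altitude, against 6.34% of all tested genes in that direction. The groups did not overlap, with low altitude higher, in 7 of the 8 and in 11.3% of all tested genes (6 of the 8 with median-of-ratios scaling or quantile normalization). The median log2 fold change was 1.01 over the 8 genes and 0.04 over all tested genes. Since the genes were chosen with this contrast known, nothing is read from these shares. In bulk tissue, fewer cells of a type and less RNA per cell cannot be told apart.

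By level, TRIM63 stood highest of the 8 in every high and low altitude library except high altitude library 1, where SESN1 was higher. At high altitude the next were SESN1, FOXO4 and FBXO32, in that order of means and with no overlap between the last 2. At low altitude FBXO32 lay above FOXO4 in each library, so the order of this pair differed between the groups. FBXO21, FOXO3, FBXO30 and FOXO1 overlapped with each other at high altitude, between 2.58 and 5.53. At low altitude FBXO21, at 3.93 to 4.63, lay below the lowest value of each other gene.

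Library by library, 7 of the 8 genes shared 1 order within the low altitude group. FOXO1, FOXO3, FOXO4, FBXO32, TRIM63, FBXO30 and SESN1 were all highest in library 3, next in library 1 and lowest in library 2. FBXO21 had the reverse order, with library 2 highest and library 3 lowest. Among all tested genes, 11.5% had the first order, as did 20.8% of the 1130 genes whose groups did not overlap with low altitude higher and 38.5% of the 218 genes with a mean at least 2-fold higher at low altitude. The order of the 7 was the same with median-of-ratios scaling, where 16.5% of all tested genes had it. Relative to its own high altitude mean, FBXO32 was 5.28, 2.33 and 6.70 times as high in low altitude libraries 1, 2 and 3, and TRIM63 3.26, 2.24 and 6.86 times. FOXO3 was 2.87, 1.62 and 3.07 times as high in the same libraries, and FOXO4 1.37, 1.14 and 1.43 times.

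Within the high altitude group the genes split. FOXO1, FOXO4, TRIM63 and FBXO30 were highest in library 3 and lowest in library 1, an order held by 34.8% of all tested genes. FOXO3 and SESN1 had the reverse order, highest in library 1 and lowest in library 3, which 6.24% of all tested genes had. FBXO32 was highest in library 3 and lowest in library 2. With median-of-ratios scaling, which raises high altitude library 1, FOXO4 joined FOXO3 and SESN1 in the reverse order and FOXO1, TRIM63 and FBXO30 kept theirs. On that scale 16.0% of all tested genes had the order of FOXO1 and 17.3% that of FOXO3, so how common each order is depended on the scale of high altitude library 1.

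**Figure D3:**
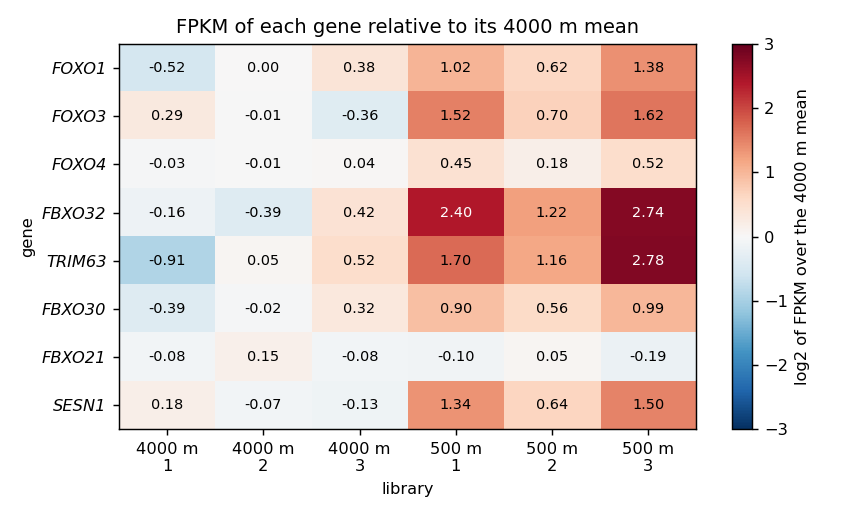
Log2 of each gene's FPKM over its own mean at 4000 m (colour and printed value) for the 8 tested genes (rows) in the 6 libraries (columns). FOXO3 and SESN1 have a like profile across the 6 libraries, FOXO1 and FBXO30 another, and FBXO32 and TRIM63 reach the highest values in low altitude library 3.

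Dividing a target by a factor in the same library removes the scaling of the library, and these ratios differed between targets. For the atrophy ligases the ratio to FOXO1 was higher at low altitude. FBXO32 was 3.83, 2.28 and 3.08 times the FPKM of FOXO1 at 4000 m and 7.79, 4.51 and 7.70 times at 500 m. These groups did not overlap, and the mean log2 ratio went from 1.58 ± 0.38 (SD, n = 3) to 2.69 ± 0.45, a difference of 1.11. TRIM63 was 12.2, 16.5 and 17.6 times FOXO1 at 4000 m and 25.8, 23.2 and 42.2 times at 500 m, a difference of 0.94 in log2 and again without overlap. Against FOXO4 the gap was wider, with FBXO32 at 0.555 to 0.943 of FOXO4 at 4000 m and 1.48 to 3.38 times FOXO4 at 500 m. Against FOXO3 the groups overlapped for both ligases, and for FBXO32 the ratio was 1.79, 1.88 and 4.23 at 4000 m and 4.50, 3.53 and 5.36 at 500 m. TRIM63 was 3.19, 7.26 and 5.72 times FBXO32 at 4000 m and 3.31, 5.15 and 5.48 times at 500 m, so the balance between the 2 ligases overlapped between groups.

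SESN1 over FOXO3 and FBXO30 over FOXO1 had the smallest spread of the 15 ratios. SESN1 was 6.08, 6.27 and 7.70 times FOXO3 at 4000 m and 5.78, 6.30 and 6.04 times at 500 m, so the highest ratio was 1.33 times the lowest over the 6 libraries. FBXO30 was 1.17, 1.05 and 1.03 times FOXO1 at 4000 m and 0.989, 1.03 and 0.816 times at 500 m, 1.44 times from lowest to highest. Its groups did not overlap, by a small margin, with 1.029 the lowest at 4000 m and 1.026 the highest at 500 m. In the other 13 ratios the highest was 1.77 (FBXO30 over FOXO4) to 8.81 (TRIM63 over FOXO4) times the lowest, with 1.82 for FBXO21 over FOXO4 and 3.42 for FBXO32 over FOXO1. FBXO21 over FOXO3 was 0.764 to 1.21 at 4000 m and 0.285 to 0.634 at 500 m, without overlap. Of the 15 ratios of a target to a factor, 6 lay wholly higher at low altitude, 4 wholly lower and 5 overlapped. The ratios reuse the same factors and targets, which were chosen with the difference between altitudes known. No share over other gene pairs was taken, so nothing is read from this count.

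**Figure D4:**
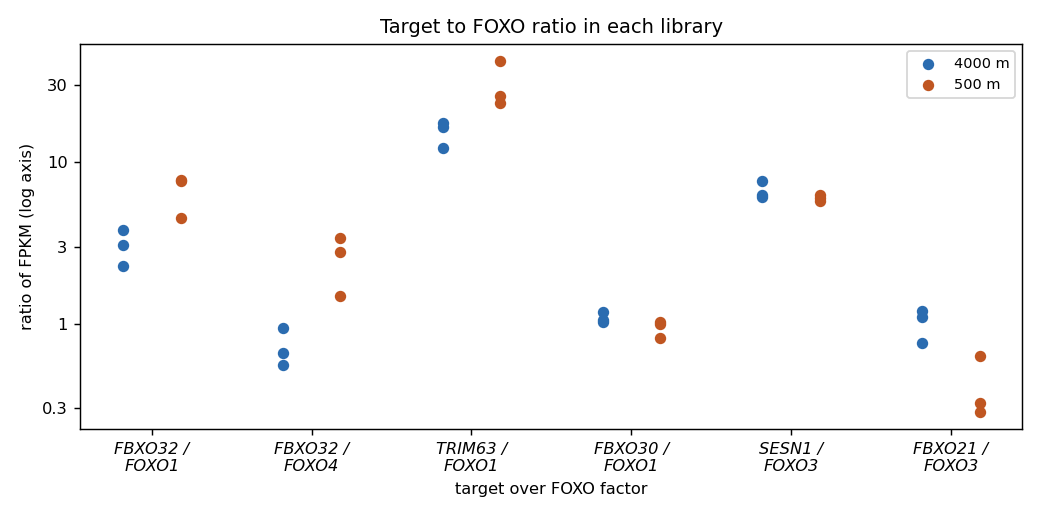
Ratio of FPKM of a target to a FOXO factor (log axis) in each library at 4000 m (blue) and 500 m (orange), for 6 pairs. FBXO32 and TRIM63 over FOXO1 are higher in each low altitude library, whereas SESN1 over FOXO3 stays between 5.78 and 7.70 in all 6.

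Likeness of profile was also measured against the whole table, as the root mean square difference over the 6 libraries between 2 genes' log2(FPKM + 1) values, each centred on its own mean. It includes the difference between altitudes, for which the genes were chosen, and is a description. Of 6718 tested genes with a symbol, SESN1 was the most like FOXO3, with a difference of 0.0789, where the median gene differed by 0.685. It was also first of the 6718 with pseudocounts of 0.5 and 0.1. The 5 most like FOXO3 outside the group were SLC16A10, an amino acid transporter (0.147), FAM13A (0.197), ABHD4 (0.220), CSRNP1 (0.242) and the growth factor BTC (0.246). FBXO30 was 3rd of 6718 in likeness to FOXO1 (0.132), a comparison added after the ratios were seen. For FBXO32 the nearest member was TRIM63, 9th of 6718 (0.414), followed by SESN1 at 22nd, FOXO3 at 31st and FOXO1 at 47th. Ranked from the factors the ligases stood far lower. The measure counts unlike sizes of change as well as unlike patterns, so a low rank does not show that the patterns differ. The difference between FBXO32 and FOXO1 is 0.678 in either direction of ranking. From FOXO3, FBXO32 was 1635th and TRIM63 5000th of 6718, the latter at 0.762, above the median gene. From FOXO1 they were 5889th and 5684th. These ranks depended on the pseudocount. At 0.1, FBXO32 and TRIM63 were 684th and 2835th from FOXO3, and 4157th and 2673rd from FOXO1.

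FOXO3 and SESN1 are near neighbours on 1 chromosome in RefSeq's Sscrofa11.1 assembly, used here for gene order alone. The only protein-coding gene between them there is ARMC2. It was at an FPKM of 0.0999 to 0.198 at 4000 m and 0.144 to 0.264 at 500 m, below the filter and too low to show a profile. SNX3, which is 2 genes from FOXO3 on its other side, was at 38.0, 44.5 and 55.1 at 4000 m and 43.9, 53.2 and 40.8 at 500 m, with overlapping groups and a log2 fold change of 0.01 (SE 0.19). CEP57L1, 2 genes beyond SESN1, was at 0.672, 1.02 and 1.21 at 4000 m and 1.32, 1.07 and 1.37 at 500 m, with overlapping groups, the low altitude order of FOXO3 and a log2 fold change of 0.20 (SE 0.15). These neighbours were looked up after the likeness of FOXO3 and SESN1 was seen.

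The genes outside the group that were most like FBXO32 were MX2 (0.202), SPIDR (0.263), MX1 (0.299), ARRDC3 (0.328) and OAS2 (0.345). MX1, MX2 and OAS2 are antiviral genes induced by interferon, and ARRDC3 is an arrestin-like adaptor of membrane receptors. MX1 was at an FPKM of 1.17, 1.45 and 2.45 at 4000 m and 9.96, 2.52 and 14.6 at 500 m, with low altitude library 2 again the lowest of its group. ARRDC3 was at 6.86, 4.84 and 11.96 at 4000 m and 40.5, 29.2 and 40.4 at 500 m. The first place depended on the pseudocount, with SPIDR closest at 0.5 and RIGI, an RNA sensor, closest at 0.1.

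The signalling genes upstream of FOXO, from insulin and IGF receptors through PI3K and AKT to the kinases and deacetylases that modify FOXO proteins, were read as a list. Of 46 genes 37 were matched and 30 tested, 21 with estimates above 0 and 9 below, where 57.7% of all tested genes were above 0. In limma with Benjamini-Hochberg adjustment 0 passed, and at an unadjusted p under 0.05 4 were higher and 0 lower at low altitude. The groups did not overlap in 8, all with low altitude higher. Among all tested genes, 6.34% were higher and 3.08% lower at that unadjusted p in limma. Low altitude was higher without overlap in 11.3% of them. The median log2 fold change was 0.13, against 0.04 over all tested genes. The receptor IGF1R and the deacetylase HDAC1 were listed at 0 in all libraries and not tested. IRS1, the insulin receptor substrate, was at an FPKM of 11.8, 18.2 and 13.5 at 4000 m and 29.1, 28.3 and 27.5 at 500 m, without overlap and with low altitude values close together. PIK3IP1, an inhibitor of PI3K, was at 3.95, 4.44 and 3.95 at 4000 m and 10.8, 5.61 and 7.74 at 500 m. SGK1, an AKT-like kinase that also phosphorylates FOXO3, was at 5.69, 9.60 and 8.55 at 4000 m and 16.1, 12.4 and 11.2 at 500 m, and CREBBP, an acetylase, at 3.50 to 4.17 and 5.28 to 6.47. The limma Benjamini-Hochberg adjusted p of these 4 was 0.155 to 0.401.

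Among 40 other genes reported as FOXO targets, 27 were matched and tested, 23 with estimates above 0 and 4 below. In limma with Benjamini-Hochberg adjustment 0 passed, 8 were higher and 0 lower at an unadjusted p under 0.05, and the median log2 fold change was 0.28. Among all tested genes 6.34% were higher and 3.08% lower at that unadjusted p, 57.7% had estimates above 0, and the median was 0.04. PDK4, the kinase that shuts off pyruvate dehydrogenase in fasting, was at an FPKM of 22.9, 0.722 and 48.3 at 4000 m and 321, 130 and 527 at 500 m. High altitude library 2 was far below the others, and the low altitude libraries had the order seen for FBXO32 (log2 fold change 4.47, SE 1.19, limma, Benjamini-Hochberg adjusted p = 0.313). GADD45B, a stress-induced signalling protein, was at 2.74, 3.25 and 4.19 at 4000 m and 15.9, 7.76 and 13.9 at 500 m. SQSTM1, the autophagy receptor p62, was at 127 to 145 and 171 to 234, and the cyclin CCNG2 at 4.47 to 5.59 and 5.97 to 10.6. The groups of these 4 genes did not overlap. In the list, 8 of 27 had low altitude higher without overlap, against 11.3% of all tested genes. Of its other autophagy genes, ULK1 had a log2 fold change of 1.01 (limma, unadjusted p = 0.0369). MAP1LC3B, BNIP3L, GABARAPL1, PINK1 and BECN1 were at 0.23, 0.18, 0.44, 0.12 and −0.01, each with an unadjusted p above 0.05 in limma. The list was chosen with earlier results of these data known.

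Other ubiquitin ligases and conjugating enzymes of muscle had a median close to that of all genes. Of 35, 25 were matched and 21 tested, 13 with estimates above 0 and 8 below, with a median log2 fold change of 0.03. By limma 0 passed after Benjamini-Hochberg adjustment, and at an unadjusted p under 0.05 4 were higher and 1 was lower. The groups did not overlap in 5 with low altitude higher and in 1 with low altitude lower. Among all tested genes those shares were 11.3% and 4.8%, and 6.34% were higher and 3.08% lower at that unadjusted p. Estimates were above 0 in 57.7% of all tested genes. TRIM72, a membrane repair protein, was at an FPKM of 75.1 to 101 at 4000 m and 114 to 139 at 500 m, and the large ligases HUWE1 at 14.02 to 16.7 and 19.3 to 19.7 and UBR4 at 7.13 to 9.57 and 11.4 to 11.7.

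Genes of the glucocorticoid response were read beside the group, because glucocorticoids are known to induce both atrophy ligases. Of 17 genes 10 were matched and tested, and all 10 had estimates above 0, with a median log2 fold change of 0.97. PER1 passed in limma (6.76, 4.94 and 7.45 at 4000 m and 43.7, 51.0 and 67.9 at 500 m, Benjamini-Hochberg adjusted p = 0.00591), and 7 of the 10 were at an unadjusted p under 0.05. Among all tested genes, 0.16% passed with low altitude higher, 6.34% were higher at that unadjusted p, and 57.7% had estimates above 0. This list too was chosen with earlier results of these data known, so nothing is read from these shares. KLF9 was at 8.13, 8.84 and 14.7 at 4000 m and 32.9, 29.1 and 40.2 at 500 m. DUSP1, a phosphatase of stress kinases, was at 23.5 to 56.2 and 73.0 to 124, and NFKBIA, the inhibitor of NF-kappaB, at 9.01 to 17.5 and 24.2 to 27.8. The summed FPKM of the 10 was 180, 94.3 and 159 at 4000 m and 629, 384 and 826 at 500 m. PDK4, given above, supplied most of that sum in the low altitude libraries 1 and 3. The sum and PDK4 had the low altitude order found for 7 of the 8 genes described here. KLF9 shared that order. PER1 and NFKBIA were instead highest in library 3 and lowest in library 1, and DUSP1 and SGK1 had the reverse. PDK4 belongs to this list and to the FOXO targets. The part of these genes in the difference of FBXO32 and TRIM63 was not tested.

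**Figure D5:**
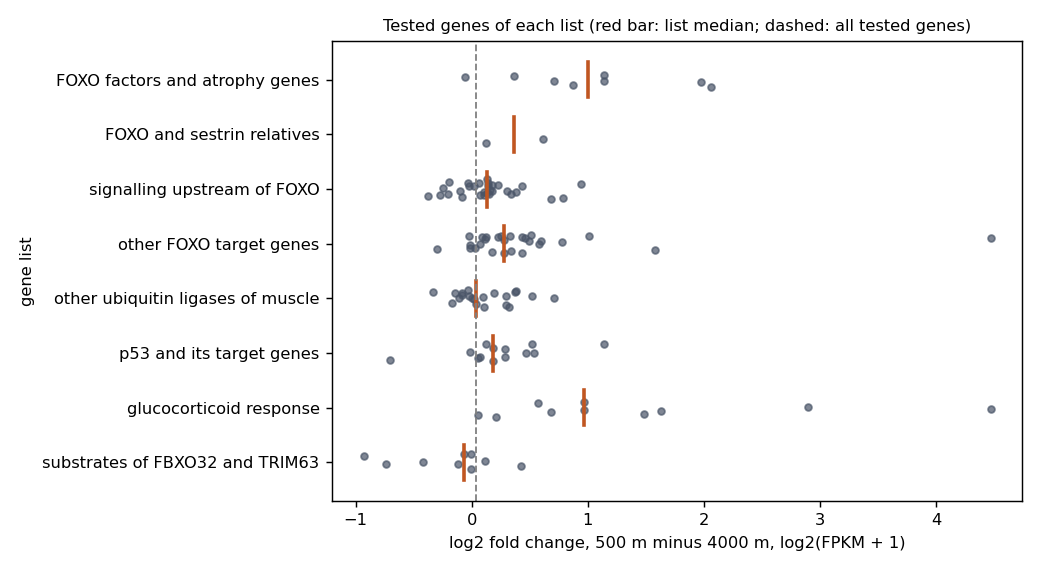
Log2 fold change, 500 m minus 4000 m on the log2(FPKM + 1) scale, of each tested gene (dot) in the FOXO and atrophy group and in 7 lists around it, with the list median as a red bar and the median of all tested genes as a dashed line. The glucocorticoid list, with a median of 0.97, lies nearest to the group, with 1.01, and the medians of upstream signalling and other ligases are 0.13 and 0.03. The group and the lists were chosen with earlier results of these data known.

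Fibre type and other cell types also varied between libraries. The 4 slow fibre genes all had estimates below 0, with a median log2 fold change of −0.73. Their sums were 10493, 2751 and 6874 in high altitude libraries 1 to 3, where FBXO32 was at 9.90, 8.44 and 14.8. In low altitude libraries 1 to 3 the sums were 3126, 4707 and 3106, with FBXO32 at 58.3, 25.7 and 74.1. The part of fibre type in the differences was not tested. Summed fast fibre genes were at 41182 to 49967 at 4000 m and 44616 to 45583 at 500 m. The 7 matched fibroblast genes, led by the collagen COL3A1, summed to 254, 979 and 865 at 4000 m and 1003, 1098 and 705 at 500 m, with high altitude library 1 the lowest. The sums of macrophage markers (36.3 to 52.2 and 28.6 to 71.6), adipocyte markers (16.5 to 34.5 and 16.7 to 26.2), endothelial markers (41.9 to 69.0 and 55.6 to 72.8), lymphocyte markers (8.36 to 9.88 and 4.73 to 11.5), smooth muscle and pericyte markers (85.2 to 127 and 113 to 121) and satellite cell markers (7.52 to 8.12 and 8.15 to 11.9) overlapped between groups except the last, and their part in the differences was not tested. Without high altitude library 1, the log2 fold change was 2.01 for FBXO32, 1.58 for TRIM63, 1.27 for FOXO3 and 0.69 for FOXO1.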

How the data were processed

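Longissimus dorsi RNA of 6 pigs, 3 per altitude, was sequenced from strand-specific dUTP libraries made with an Illumina TruSeq kit, per the labels' protocols. The authors deposited 1 table of FPKM values, 1 column per animal, with columns matched to samples by their titles. TopHat2 2.0.11 and Cufflinks 2.2.1 are named with no role, per the submitters' processing notes. For the genome build, the annotation and the strand setting, the record is "not given in the sources used here". No coordinates are therefore printed, and reads of overlapping genes cannot be told apart. As FPKM holds no counts, depth is unknown in absolute terms and intervals for counting error are left out. The files do not show how close copies shared reads.

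A gene table gave 11804 of the 25322 IDs a symbol, 6719 of them among the 10005 tested genes. Genes that reached an FPKM of 1 in 3 or more libraries were fitted as log2(FPKM + 1) with limma 3.58.1 in R 4.3.3, with trend, as low minus high altitude. The test was two-sided, p-values were adjusted by Benjamini-Hochberg over the whole tested table, and the threshold was 0.05. A fold is a ratio of mean FPKM, and a log2 fold change with a pseudocount understates the change of low genes. For a single gene an exact permutation test of 3 against 3 cannot go below 0.1. The labels give 1 library per animal, so p-values measure the spread between animals. The fit was tested on simulated data. Ratios of genes within a library used FPKM with no pseudocount.

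The members and the lists around them were chosen with earlier results of these data known. Apart from the 10 members, up to 4 genes per list with the smallest unadjusted p, any past the threshold, and the 5 genes most like FBXO32 and FOXO3 were named, and 1 gene that this rule names is not reported here. The alternatives were 2 pseudocounts, 2 filters, 3 scalings, limma with no trend, robust limma, array weights, a replicate block, and leaving out each library. Plots used matplotlib 3.10.9 (Python 3.11.15).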

Additional observations from a re-analysis of the deposited data

How the results depend on the processing

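The 17 alternative fits gave 135 values for the 8 genes, and 132 kept the direction and the side of the threshold. FBXO21, close to 0, was at 0.0011 with libraries rescaled to a common total and between −0.11 and 0.0015 when 1 library was left out, its highest value being without high altitude library 2. FBXO32 was between 1.76 and 2.50 when 1 library was left out, and passed only without low altitude library 2, so the number of the 8 genes past the threshold in limma was 0 or 1 in these fits. In the 17 fits 6 or 7 of the 8 genes were at an unadjusted p under 0.05. Over all genes, 23 passed, against 6 with no filter, 9 under median-of-ratios scaling, 10 under quantile normalization and 38 with array weights. Leaving out 1 library gave 4 to 21, with 11 and 4 when high altitude libraries 2 and 3 were dropped and 6 and 4 when low altitude libraries 1 and 3 were. The cause was not tested. The groups share replicate numbers, and deviations of same-numbered libraries correlated at −0.0154, 0.0949 and −0.141. With 3 animals per group these values cannot show whether the numbers pair the animals. With the replicate block 19 genes and 0 of the 8 passed, and the limma adjusted p of FBXO32 was 0.0749. The block lowered the SE of FBXO32 from 0.39 to 0.23 and raised that of FOXO4 from 0.14 to 0.16. Not every library correlated best with its own number. Depth limits cannot be stated, since the table holds no counts.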

Other observations

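Genes of the p53 response, which induces SESN1 and CDKN1A in damaged cells, were read as a list. Of 28 genes 19 were matched and 13 tested, 11 with estimates above 0 and 2 below, with a median log2 fold change of 0.18 against 0.04 over all tested genes. In limma with Benjamini-Hochberg adjustment 0 passed. At an unadjusted p under 0.05, 6.34% of all tested genes were higher and 3.08% lower at low altitude, and 57.7% had estimates above 0. SESN1 was the only gene of the list higher at an unadjusted p under 0.05, and DRAM1, a lysosomal protein, the only one lower (1.87, 3.07 and 2.34 FPKM at high and 0.901, 0.962 and 1.44 at low altitude). PLK2, a stress-induced kinase, was at 1.34, 2.35 and 2.80 at high and 3.94, 4.29 and 2.50 at low altitude, with overlapping groups. So did the groups of PPM1D, a phosphatase that damps p53 (3.20 to 3.79 and 3.68 to 5.26).

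Among 17 proteins known as substrates of FBXO32 or TRIM63, 9 genes were matched and tested, 2 with estimates above 0 and 7 below, with a median log2 fold change of −0.07. In limma with Benjamini-Hochberg adjustment 0 passed, and 1 was higher and 1 lower at an unadjusted p under 0.05. Among all tested genes those shares were 6.34% and 3.08%, and 57.7% had estimates above 0. The values are of mRNA and do not show how much of a substrate protein is broken down. MYBPC2, the fast myosin-binding protein C, was at an FPKM of 1201, 1296 and 1002 at high and 1482, 1528 and 1658 at low altitude, without overlap. MYL3, a slow myosin light chain, was at 1190, 627 and 1293 at high and 469, 672 and 440 at low altitude. TNNI1, the slow troponin I, was at 2161, 563 and 1304 at high and 650, 880 and 599 at low altitude, and MYOD1, a muscle regulatory factor, at 12.05 to 20.5 and 6.51 to 14.4. Both slow fibre genes overlapped between groups, as did MYOD1.

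Of the forkhead relatives, FOXK1, which represses autophagy genes in fed cells, was at 3.60, 2.73 and 2.75 at high and 5.30, 3.997 and 6.27 at low altitude, without overlap and with library 2 the lowest at low altitude (limma, Benjamini-Hochberg adjusted p = 0.366). FOXK2 was at 8.32 to 11.2 and 10.06 to 10.99, with overlapping groups.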
